A study of Rattus norvegicus with 6 samples.

Results

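The genes described here encode the subunits of hypoxia-inducible factor (HIF) and the proteins that tie its alpha subunits to oxygen: Hif1a, Epas1, Hif3a, Arnt, Arnt2, Egln1, Egln2, Egln3, Hif1an and Vhl. They were taken by symbol, and all 10 are among the 32623 genes of the deposited table. The table comes from bulk RNA sequencing of rat liver tissue in 2 groups of 3 samples. The control group (GM) was embolized with blank microspheres and the other group (GZM) with zinc sulfide (ZnS) microspheres. Embolization blocks the vessels that supply a tissue, so both groups carry that intervention, and the series is titled as a study of hepatocellular carcinoma. The labels do not give strain, sex, age, tumour model, dose or time after embolization, nor whether a piece held tumour or surrounding liver. Replicates are numbered, but whether each came from its own animal is not said. If they did not, the p-values cover spread that may be technical.

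HIF is a dimer of an oxygen-labile alpha subunit and a stable beta subunit that binds DNA near genes of glucose uptake, vessel growth and iron handling. In the presence of oxygen the prolyl hydroxylases encoded by Egln1, Egln2 and Egln3 modify the alpha subunit, and the product of Vhl then marks it for destruction. The asparagine hydroxylase encoded by Hif1an blocks recruitment of coactivators. In liver, Hif1a and Epas1 (which encodes HIF-2 alpha) are known from hepatocytes as well as endothelial and other non-parenchymal cells. Much of this control acts on the protein, and only messenger RNA was measured in these samples.

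The sequences upstream of 4 of the genes are shown because these 4 form the contrasts the values below turn on, Hif1a against Epas1 and Egln3 against Egln2. Each is the run of 250 bases before the RefSeq start on build GRCr8, 5′ to 3′ on the gene's own strand. Capitals mark ACGTG or GCGTG on either strand, the core to which HIF dimers are known to bind. The starts were not read from these samples, and a match is a string of letters, not a bound site. The Hif1a run spans chr6:98359648-98359897 on the forward strand, the Epas1 run chr6:13624730-13624979, the Egln2 run chr1:91586986-91587235 and the Egln3 run chr6:77411016-77411265, the last 3 on the reverse strand.
Hif1a: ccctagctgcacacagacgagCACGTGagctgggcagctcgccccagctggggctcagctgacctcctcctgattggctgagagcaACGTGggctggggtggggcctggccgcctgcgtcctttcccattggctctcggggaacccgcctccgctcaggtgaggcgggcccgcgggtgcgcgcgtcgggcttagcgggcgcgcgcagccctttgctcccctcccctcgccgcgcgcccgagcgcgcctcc
Epas1: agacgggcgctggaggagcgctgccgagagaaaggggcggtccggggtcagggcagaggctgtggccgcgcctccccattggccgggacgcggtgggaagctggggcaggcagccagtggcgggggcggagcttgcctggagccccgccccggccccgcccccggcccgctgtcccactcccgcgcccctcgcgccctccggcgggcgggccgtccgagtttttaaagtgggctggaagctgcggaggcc
Egln2: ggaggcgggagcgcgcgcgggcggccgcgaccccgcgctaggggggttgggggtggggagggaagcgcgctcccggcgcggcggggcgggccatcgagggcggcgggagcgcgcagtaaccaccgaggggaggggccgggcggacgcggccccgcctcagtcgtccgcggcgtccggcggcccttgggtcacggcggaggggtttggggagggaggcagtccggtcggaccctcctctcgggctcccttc
Egln3: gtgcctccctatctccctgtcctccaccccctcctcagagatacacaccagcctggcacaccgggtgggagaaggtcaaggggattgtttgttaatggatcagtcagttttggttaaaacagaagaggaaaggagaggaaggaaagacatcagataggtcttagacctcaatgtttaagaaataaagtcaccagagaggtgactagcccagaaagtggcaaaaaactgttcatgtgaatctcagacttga

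Hif1a held 3 matches in its window of 300 bases (250 before and 50 after the start). A match on each strand shares the letters CACGTG, and the other begins at position -164 from the start. Hif3a held 2 matches, Egln1 2 and Arnt 1, while the windows of the other 6 genes held neither string. Of 33469 windows of this length in the table, 41.6% held at least 1 match. The windows also differed in base composition, with a GC content of 78.3% for Egln2 and 44.7% for Egln3, against a median of 51.7% over all windows.

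Library size ran from 13443115 to 16604067 counts, and no 2 replicates were alike within sampling noise. TMM factors, which correct for differences in composition, ran from 1.17 to 1.43 in GM and from 0.715 to 0.793 in GZM. Levels below are TMM-scaled CPM, counts divided by the corrected library size, unless said otherwise. Tests are edgeR's quasi-likelihood test over all 14298 genes that passed its low-count filter, called at an adjusted p under 0.05. Scaling by library totals instead moves the median log2 fold change of all tested genes by -0.83, so for the members and other named genes values on that scale are given where they change a direction or a call, and for lists the counts of calls. All 10 hepatocyte markers were present in every library. They rose in GZM (8 of 10 also with library totals), with summed levels of 16492 to 59232 CPM in GM and 141987 to 165900 in GZM, with GM 3 highest of the controls. All 10 markers of dividing cells fell on both scales, from 567 to 1459 CPM summed in GM to 220 to 244 in GZM.

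Hif1a fell in GZM and was the member with the smallest p. The gene (ENSRNOG00000008292) lies on the forward strand of chromosome 6, 96810907 to 96856052. These are the deposited table's positions, and the table does not settle its build. It stood at 260.2, 246.5 and 242.3 CPM in GM 1, 2 and 3 and at 103.2, 84.5 and 81.5 CPM in GZM 1, 2 and 3. Every GZM library lay below every GM library, with a gap wider than the spread within either group. The fold was 2.78 lower (log2 fold change -1.48 ± 0.17 SE, n = 3 each, edgeR adjusted p = 0.00215). With library totals the log2 fold change was -2.32, and the call held in all 15 alternatives tried. In bulk tissue fewer cells of a type and less RNA per cell cannot be told apart, and the part of the marker shifts above in this value was not tested.

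Epas1 (ENSRNOG00000021318, chromosome 6, 10306405 to 10387265 in the deposited table) did not pass. It stood at 115.3, 66.1 and 158.5 CPM in GM and at 215.7, 186.2 and 185.2 in GZM. The groups did not overlap, but the GM libraries spread widely (113.3 ± 46.3 CPM against 195.7 ± 17.3; SD, n = 3 each). The log2 fold change was 0.79 ± 0.30 SE with an adjusted p of 0.0649, and -0.014 with library totals. Without GM 3, the GM library with the highest Epas1, it passed as higher at 1.15 (adjusted p = 0.00717), and DESeq2 called it at 0.80 (adjusted p = 0.0417).

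Of the markers fixed for endothelial cells, where Epas1 is known to be abundant, 3 of 8 tested rose and 1 fell on the TMM scale. With library totals 0 were higher and 2 lower. Of the 3 that rose, the growth factor receptor genes Kdr (0.78) and Tek (0.66) then turned to -0.026 and -0.16, and Egfl7 (1.24) stood at 0.41 without a call. The marker that fell, Vwf, was called lower on both scales. It stood at -1.07 (adjusted p = 0.0342), and at -1.90 with library totals (adjusted p = 0.00222). Tie1 did not pass on the TMM scale (-0.06) and was called lower with library totals (-0.88, adjusted p = 0.0166). Pecam1 was not matched in the table and Cldn5 had 0 counts in all 6 libraries. The endothelial markers summed to 233 to 339 CPM in GM and 295 to 379 in GZM, which overlap. For sinusoidal endothelium 3 of 6 markers rose on the TMM scale, against 0 higher and 2 lower with library totals, with summed levels of 303, 172 and 423 CPM in GM 1, 2 and 3 and 401 to 469 in GZM. Among the GM libraries Epas1 and the sinusoidal sum had the same order, lowest in GM 2 and highest in GM 3. The hepatocyte, macrophage and T-cell sums had this order too, as did the sum of B-cell and plasma cell markers. The sum of the general endothelial markers did not, at 339, 233 and 318 CPM in GM 1, 2 and 3. Within GZM the orders differed, as Epas1 was lowest in GZM 3 (185.2 CPM), where the sinusoidal sum was highest (469 CPM). The part of endothelial cells in the Epas1 level was not tested.

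**Figure D1:**
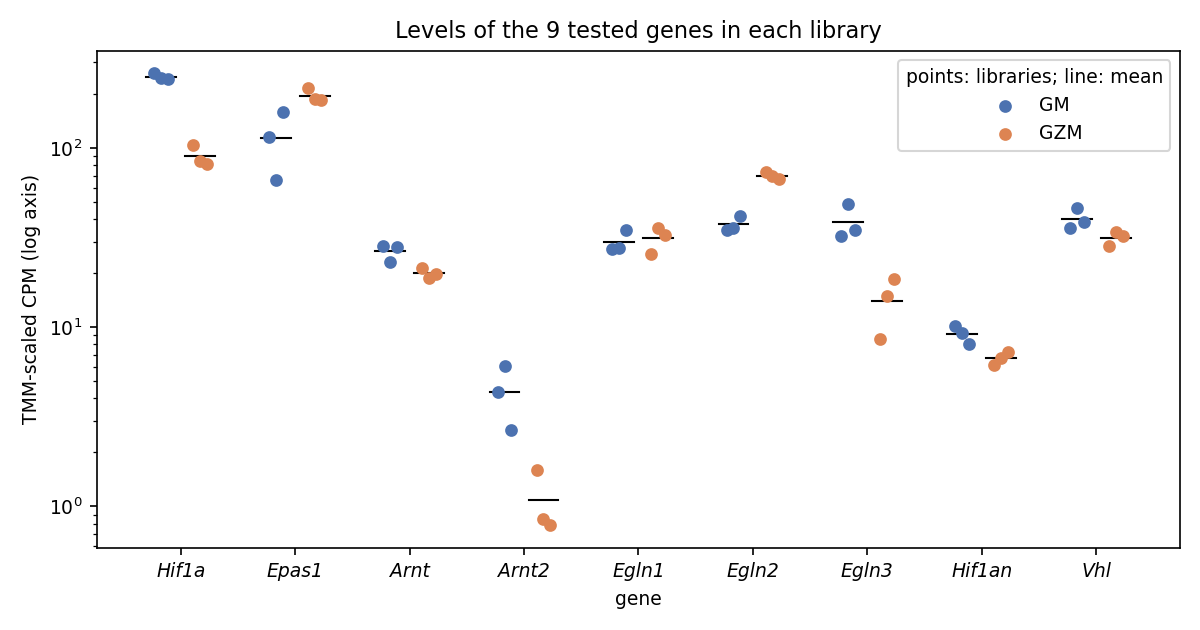
TMM-scaled CPM on a log axis for the 9 tested genes, with 1 point per library and a line at the mean of 3 libraries. Hif1a, Arnt2 and Egln3 lie lower in GZM, Egln2 lies higher, and Egln1 is the gene whose groups overlap.

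The paralogs encoded by Hif1a and Epas1 share the partner Arnt, and their balance within a library was also measured. Such a ratio does not depend on the scaling factors. Counts per exon length gave 2.77, 4.58 and 1.88 transcripts of Hif1a for each of Epas1 in GM 1, 2 and 3, against 0.588, 0.558 and 0.541 in GZM. Hif1a was thus the more abundant in all 3 GM libraries and Epas1 in all 3 GZM libraries. The log2 ratio was 1.53 ± 0.65 in GM and -0.83 ± 0.06 in GZM (SD, n = 3 each), a difference of -2.36. An exact two-sided permutation test gave p = 0.1, the smallest that 3 against 3 samples allow. GM 3 had the lowest ratio of the controls and, as above, the highest hepatocyte sum.

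Expressed as shares of the 3 alpha subunit genes, Hif1a made up 73.6% ± 8.43 of counts per length in GM and 36.0% ± 0.976 in GZM. Epas1 took nearly all of the remainder. Leaving out any 1 library kept the difference in the Hif1a share between -41.8 and -33.4 percentage points. Hif3a, whose product can act as an inhibitor of the other alpha subunits, was close to undetected, with 2 counts in GM 3 and 0 in the other 5 libraries. The GM count corresponds to 0.0419 CPM of the summed library sizes (exact 95% binomial interval 0.00507 to 0.151), and that for the 0 counts in GZM reaches 0.0832 CPM. Taken as 3 counts, the limit that 0 counts allow is 0.0676 CPM in GZM. These limits cover counting error only, and Hif3a was not tested.

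The beta subunits differed from each other. Arnt, the general partner of HIF alpha subunits, stood at 28.2, 23.0 and 28.0 CPM in GM and at 21.3, 18.7 and 19.8 in GZM. The groups did not overlap, yet the log2 fold change of -0.41 ± 0.16 SE did not pass (adjusted p = 0.0748). It passed as lower without GM 2, the lowest GM library (-0.50, adjusted p = 0.0367), and with library totals (-1.24, adjusted p = 0.00124). Arnt2, a close relative best known from the nervous system, was scarce at 4.34, 6.09 and 2.67 CPM in GM and 1.60, 0.849 and 0.785 in GZM. It was called lower (adjusted p = 0.00991) on 16, 9 and 10 counts in the GZM libraries. Arnt2 passed the low-count filter through its 3 GM libraries, with only 1 GZM library above the minimum. A gene that enters the test in this way is favoured to be called lower, so its fold is not given in the text.

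The prolyl hydroxylase genes did not move together. Egln3, itself a known HIF target that is strongly induced by low oxygen, fell. Its levels were 32.0, 48.9 and 34.7 CPM in GM and 8.62, 14.9 and 18.5 in GZM, with GZM 1 lowest. That is 2.74-fold lower (-1.45 ± 0.30 SE, adjusted p = 0.00716), and -2.29 with library totals. The call held in all 15 alternatives.

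Egln2, whose transcript is not known to be induced by low oxygen, rose on the TMM scale. It stood at 34.6, 35.7 and 41.8 CPM in GM and at 72.9, 69.8 and 67.1 in GZM, tightly grouped in both. It was called 1.87-fold higher (0.90 ± 0.14 SE, adjusted p = 0.00321), but with library totals the value was 0.08 and did not pass (adjusted p = 0.666). Egln2 overlaps the cytochrome P450 gene Cyp2t1 on the opposite strand by 103 bases. Cyp2t1 itself drew 347 counts in GM and 591 in GZM, and whether counting used the strand is not given in the sources used here.

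Egln1, the main oxygen sensor of most tissues, stood at 27.2, 27.5 and 34.6 CPM in GM and at 25.7, 35.9 and 32.7 in GZM, so the groups overlapped. Its log2 fold change was 0.08 ± 0.18 SE (adjusted p = 0.747). With library totals it was called lower (-0.74, adjusted p = 0.00779).

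Shares within the Egln family do not depend on the scaling, and in GZM they were smaller for Egln3 and larger for Egln2. Egln3 took 16.4%, 22.7% and 14.5% of the family's counts per length in GM 1, 2 and 3, and 3.92%, 5.62% and 7.37% in GZM. Egln2 took 25.1%, 23.5% and 24.7% in GM and 47.0%, 37.3% and 37.8% in GZM. Neither share overlapped between groups. The differences were -12.2 and 16.3 percentage points, each with an exact permutation p of 0.1 (0.15 adjusted over the 3 shares), the smallest p that the design allows. The Egln1 share overlapped, at 57.7% ± 3.58 in GM and 53.7% ± 4.09 in GZM (exact permutation p = 0.3, also 0.3 adjusted). The table gives Egln1 an exon length of only 669 bases against 1987 for Egln2 and 2817 for Egln3, which raises its share per length. Without division by length the differences were -24.3 points for Egln3 and 25.4 for Egln2.

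**Figure D2:**
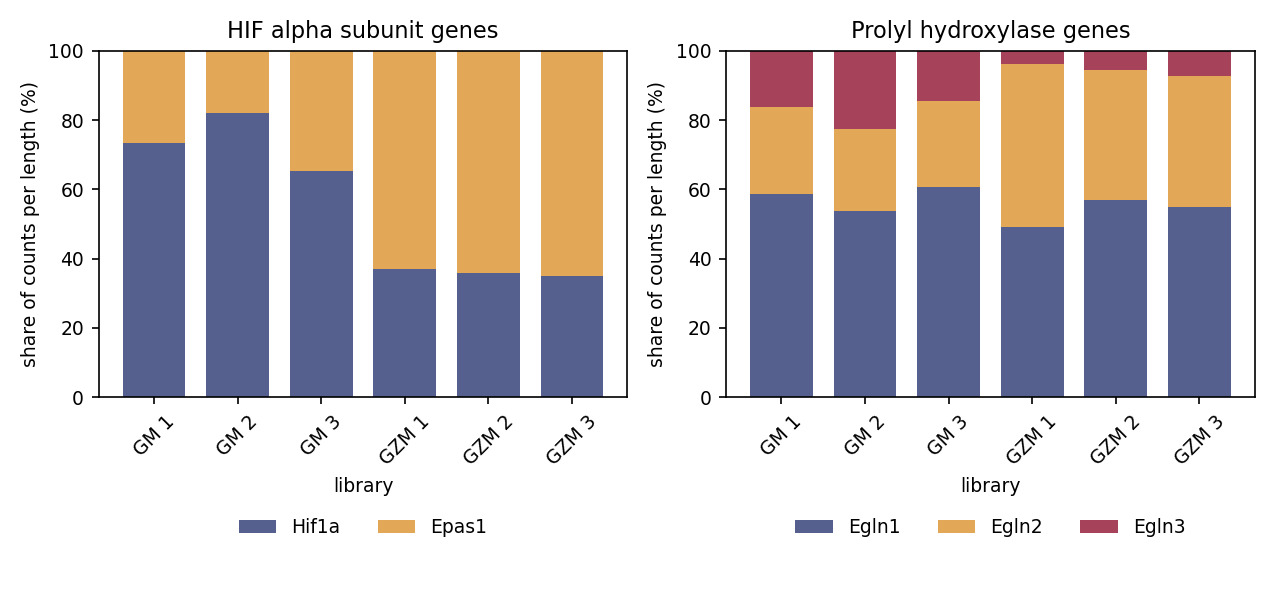
Shares of counts per exon length in each library, on the left for Hif1a and Epas1 (Hif3a, at most 0.0534%, is too small to see) and on the right for Egln1, Egln2 and Egln3. Hif1a makes up 65.2% to 82.1% of the alpha subunits in GM and 35.1% to 37.0% in GZM, and in GZM Egln3 takes less of the Egln sum and Egln2 more.

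The genes that act after or beside prolyl hydroxylation did not pass. Hif1an stood at 10.1, 9.32 and 8.07 CPM in GM and 6.12, 6.69 and 7.30 in GZM (-0.45 ± 0.22 SE, adjusted p = 0.132). Vhl stood at 35.6, 46.0 and 38.7 CPM in GM and 28.2, 33.8 and 32.3 in GZM (-0.35 ± 0.16 SE, adjusted p = 0.111). In both, every GZM library lay below every GM library, by a small margin. With library totals both were called lower, Hif1an at -1.29 (adjusted p = 0.00359) and Vhl at -1.19 (adjusted p = 0.00161).

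Of the 9 tested members 1 was higher and 3 lower, or 4 called in all, where 44.0% of all 14298 tested genes were called (22.2% higher, 21.7% lower). The share of members called is therefore close to the background. The lower calls include Arnt2, which passed the low-count filter through its GM libraries. Groups did not overlap for 8 of the 9, against 58.1% of tested genes. In 6 of these GZM was lower, against 29.7% of tested genes, and in 2 it was higher, against 28.4%. The 6 include Arnt2, whose entry through its GM libraries favours a lower GZM level here too. The members' median log2 fold change was -0.41, against -0.09 over all tested genes. Scaling by library totals gave 7 lower calls among the members and left Egln2 and Epas1 as those not called. On that scale 8513 of all 14298 tested genes were called lower. Without GM 3 the members had 2 higher calls, Epas1 being added, and without GM 2 they had 4 lower calls, Arnt being added. Over all tested genes the calls dropped to 2112 higher and 1665 lower without GZM 2, and to 1954 lower without GZM 3.

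**Figure D3:**
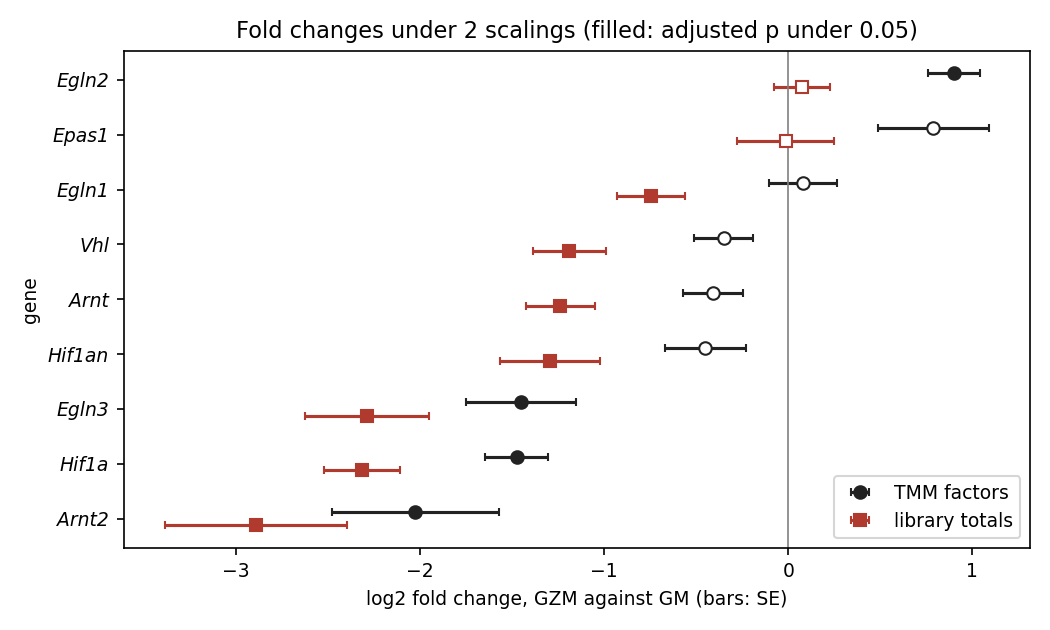
Log2 fold change of GZM against GM with its SE for the 9 tested genes, with TMM factors (circles) and with library totals (squares); filled symbols have an adjusted p under 0.05. The order of the genes is the same on both scales, and Hif1a, Egln3 and Arnt2 lie furthest below 0 on each. Arnt2 passed the low-count filter through its GM libraries, so its place in this order is favoured by the filter.

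Levels of different genes were compared per exon length, as deposited FPKM, which is scaled to library totals. In GM the order of means was Hif1a (84.0 ± 11.4 FPKM), Egln1 (59.0 ± 1.49), Epas1 (30.2 ± 9.84), Egln2 (25.0 ± 0.446), Vhl (18.6 ± 3.58), Egln3 (18.4 ± 5.42), Arnt (14.4 ± 1.77), Hif1an (9.24 ± 1.93) and Arnt2 (0.960 ± 0.446). Epas1 overlapped there with Egln2, Vhl and Egln3, and Vhl, Egln3 and Arnt overlapped with each other. In GZM the order was Egln1 (35.2 ± 5.84 FPKM), Epas1 (29.9 ± 2.76), Egln2 (26.4 ± 1.12), Hif1a (16.9 ± 2.11), Vhl (8.17 ± 0.841), Arnt (6.11 ± 0.566), Hif1an (3.76 ± 0.493), Egln3 (3.75 ± 1.47) and Arnt2 (0.130 ± 0.0520). There the neighbours Egln1 and Epas1 overlapped, as did Epas1 and Egln2, and Hif1an and Egln3. Hif1a thus had the highest mean per length in GM and the fourth in GZM, and the rank of Egln1 rests on its short exon length.

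The profiles most like Hif1a over the 6 libraries, by root mean square distance of log2 CPM relative to each gene's mean, were those of the calcium-dependent kinase gene Camk2d (0.0798), the dynein light chain gene Dynlt1 (0.0868) and the Notch-modifying glycosyltransferase gene Lfng (0.0878). For Epas1 they were the adhesion receptor gene Adgrf5 (0.0657), the lysophosphatidic acid receptor gene Lpar6 (0.0869) and the lysosomal lipase gene Lipa (0.0995).

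The rest of the machinery was read from 7 lists of pathway genes, with 72 genes tested once each, of which 11 rose and 18 fell. That is 29 of 72, again near the 44.0% of all tested genes, and the median of -0.10 is near that of all tested genes. The lower calls include Cited1, Pfkfb4 and Bhlhe41, which passed the low-count filter through their GM libraries. With library totals 1 gene was higher and 53 lower. By list, the lower calls on that scale were 3 of 4 VHL partners, 8 of 8 coactivators and transactivation regulators, 10 of 14 stability regulators, 8 of 9 genes upstream of Hif1a synthesis, 6 of 7 dioxygenases and 1 of 5 other bHLH-PAS factors, which also held the higher call. Without GM 1 the calls were 7 higher and 10 lower, without GZM 1 they were 11 and 11, without GZM 2 they were 8 and 7, and without GZM 3 they were 9 and 10.

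Among the 4 partners of VHL in its ubiquitin ligase, 1 passed. The adaptor gene Elob rose by 1.03 ± 0.21 SE (adjusted p = 0.00652), from 14.1 to 28.8 CPM. With library totals it was at 0.20 (adjusted p = 0.418). The adaptor Eloc (0.04), the scaffold Cul2 (0.25) and the ring protein Rbx1 (0.04) did not pass, and with library totals all 3 were called lower (-0.80, -0.61 and -0.80).

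Of 8 tested coactivators and transactivation regulators 3 fell, at a list median of -0.52. The nuclear receptor coactivator Ncoa3 fell by 1.51 on the log2 scale, with 48.4, 36.5 and 31.4 CPM in GM against 12.4, 11.7 and 16.6 in GZM (adjusted p = 0.0029). The acetyltransferase Ep300, which binds the alpha subunit where Hif1an would hydroxylate it, was called lower at -1.35 ± 0.45 SE (adjusted p = 0.0423). Ep300 kept the call without GM 3 and lost it on leaving out each other library (adjusted p up to 0.155). Its paralog Crebbp did not pass (0.21), and was called lower with library totals (-0.63). Among the Cited proteins, which compete with HIF for the same acetyltransferases, Cited1 was called lower (adjusted p = 0.0131) on 48, 144 and 43 counts in GM against 7, 2 and 0 in GZM. It passed the low-count filter through its 3 GM libraries, so its fold is not given. The call was lost without GZM 2 (adjusted p = 0.0569). Cited2, itself a HIF target, stood at 49.6, 55.7 and 54.1 CPM in GM and 48.4, 29.8 and 24.3 in GZM, and did not pass (adjusted p = 0.0695). It passed as lower without GZM 1 (-0.97, adjusted p = 0.0102) and with library totals (-1.48, adjusted p = 0.00186).

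Genes acting on the stability of HIF alpha subunits went both ways, with 3 of 14 higher and 2 lower. The immunophilin gene Fkbp8, which helps hold down the prolyl hydroxylase PHD2, rose by 1.20 ± 0.24 SE (adjusted p = 0.00646), or 0.38 without a call on library totals (adjusted p = 0.119). Os9, whose product binds both HIF-1 alpha and prolyl hydroxylases, rose by 0.98 ± 0.23 (adjusted p = 0.0122). On library totals it was at 0.17 (adjusted p = 0.465), and it lost the call without GM 1 (adjusted p = 0.0556). The SUMO protease gene Senp1, which has 2 rows in the table and is uncertain, was lower at -1.90 ± 0.46 (adjusted p = 0.0135). Limd1, a scaffold that joins prolyl hydroxylases to VHL, was lower at -0.74 ± 0.19 (adjusted p = 0.0149). Both lost the call without GZM 2 (adjusted p = 0.0532 and 0.0707).

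**Figure D4:**
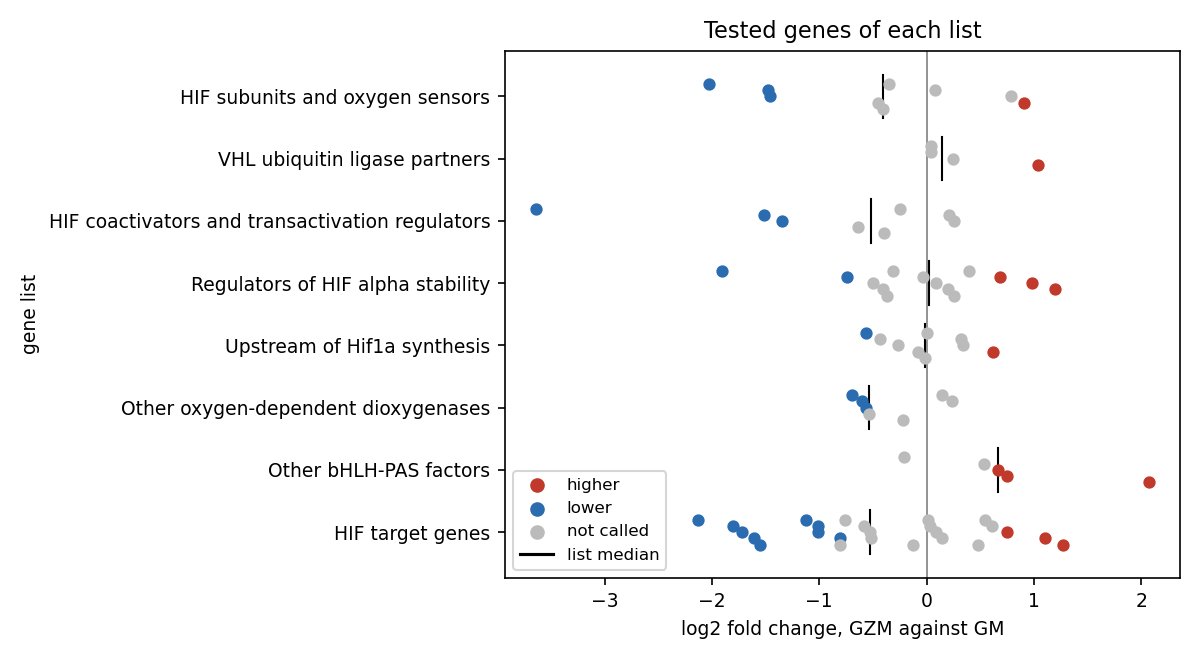
Log2 fold change of each tested gene by list, with higher calls in red, lower calls in blue, uncalled genes in grey and the list median as a black line. Calls in both directions occur among the members, the stability regulators, the genes upstream of Hif1a synthesis and the HIF targets.

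Of 9 tested genes upstream of Hif1a synthesis 1 rose and 1 fell, at a median of -0.02. The NF-kappa-B kinase gene Ikbkb rose by 0.62 ± 0.16 SE (adjusted p = 0.0161), turning to -0.20 with library totals. It lost the call without GM 1, GZM 2 or GZM 3 (adjusted p = 0.0598, 0.0678 and 0.0673). Sp1, a general promoter-binding factor, was lower at -0.56 ± 0.17 (adjusted p = 0.0321), a call that held without GM 3 and was lost on leaving out each of the others (adjusted p up to 0.133). Rela (0.32) and Stat3 (0.33), which are known to act on Hif1a transcription, did not pass, and with library totals were called lower at -0.52 and -0.49. Stat3 passed as higher without GM 3 (0.46, adjusted p = 0.0431).

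Among 7 other oxygen-dependent dioxygenases, a list made up mostly of histone demethylases, 3 fell. Kdm3a, a known HIF target, fell by 0.60 on the log2 scale, with 70.8, 76.6 and 74.5 CPM in GM and 51.8, 46.1 and 48.2 in GZM (adjusted p = 0.00934). Without GZM 2 it did not pass (adjusted p = 0.0606). Kdm4c was lower at -0.69 ± 0.19 SE (adjusted p = 0.0211), and lost the call without GM 1, GZM 1, GZM 2 or GZM 3 (adjusted p up to 0.0944). Kdm5a was lower at -0.57 ± 0.18 (adjusted p = 0.0359), and kept it only when GM 3 was the library left out (otherwise adjusted p up to 0.114). Kdm6a did not pass (0.24), and was called lower with library totals (-0.60).

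HIF subunits belong to the bHLH-PAS family of transcription factors, and 3 of 5 other tested genes of the family rose. Npas2, a partner of Bmal1 in the clock, rose by 2.07 ± 0.34 SE (adjusted p = 0.00368), with 7.38, 5.06 and 11.5 CPM in GM and 24.3, 43.3 and 32.8 in GZM. The clock genes Clock (0.67 ± 0.15, adjusted p = 0.00946) and Bmal1 (Arntl in the table; 0.75 ± 0.15, adjusted p = 0.0068) rose on the TMM scale and turned to -0.17 and -0.075 with library totals, without a call. Ahr, the dioxin receptor that also pairs with Arnt, did not pass (-0.21 ± 0.16, adjusted p = 0.294) and was called lower with library totals (-1.05, adjusted p = 0.00175). The Bmal1 paralog Bmal2 did not pass on either scale (0.53, or -0.30 with library totals).

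Of 25 tested HIF target genes 9 fell and 3 rose, at a median of -0.53. The lower calls include Pfkfb4 (10, 8 and 11 counts in GZM 1, 2 and 3) and Bhlhe41 (12, 3 and 16). Both passed the low-count filter through their GM libraries and so are favoured to be called lower. Over all tested genes 21.7% fell and 22.2% rose, at a median of -0.09. The lower calls came to 5 without GM 1, without GZM 1 and without GZM 3, and to 6 without GZM 2. The higher calls came to 7 without GM 3 and to 2 without GM 1, GM 2, GZM 2 or GZM 3. With library totals 0 rose and 17 fell. The genes of smallest p were the stress gene Ndrg1 (-1.81), the glucose transporter gene Slc2a1 (-1.72), the collagen prolyl hydroxylase gene P4ha1 (-1.01) and Pfkfb3 (-1.61), an activator of glycolysis. The last stood at 90.4, 67.2 and 146.6 CPM in GM and at 38.1, 31.1 and 30.5 in GZM. Vegfa, the vessel growth factor gene, went the other way, at 182.0, 182.9 and 245.8 CPM in GM and 407.8, 506.8 and 400.4 in GZM (1.11 ± 0.21 SE, adjusted p = 0.00587, and 0.28 without a call on library totals, adjusted p = 0.2). The fold changes of Hif1a and Vegfa had opposite signs on both scales, though for Vegfa only the TMM scale gave a call.

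Markers of other cell types that a piece of liver can hold moved as follows. Fibroblast and stellate cell markers had 2 of 9 higher and 1 lower, smooth muscle and pericyte markers 3 of 7 lower, and cholangiocyte markers 1 of 6 higher. Macrophage markers had 3 of 9 higher and 4 lower, with summed levels of 948 to 2255 CPM in GM and 1392 to 1719 in GZM. Neutrophil markers had 1 of 7 lower, T-cell markers 1 of 8 lower, natural killer cell markers 2 of 6 lower and erythroid markers 1 of 5 higher. The natural killer cell calls include Eomes, with 7, 1 and 3 counts in GZM 1, 2 and 3. Eomes passed the low-count filter through its GM libraries and so is favoured to be called lower. With library totals the higher calls were 1 macrophage and 1 erythroid marker. The lower calls there were 7 of 9 fibroblast and stellate, 7 of 7 smooth muscle and pericyte, 1 of 6 cholangiocyte, 5 of 9 macrophage, 2 of 7 neutrophil, 5 of 8 T-cell and 5 of 6 natural killer cell markers. These again include Eomes, and also Mpo and Trat1, which likewise passed the filter through their GM libraries. T-cell markers summed to 259 to 509 CPM in GM and 85.4 to 243.6 in GZM. The 6 tested B-cell and plasma cell markers did not pass, at adjusted p from 0.085 to 0.875, and 1 was lower with library totals. Their part in the levels of the HIF genes was not tested.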

How the data were processed

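Messenger RNA of 6 rat liver samples was read from the deposited table, in which the columns of the GZM samples carry the letters as ZGM and were matched by those letters and their numbers. Each gene has, per the file headers, counts and FPKM. The authors' counts carry no normalization and are whole. Dividing these by exon length and library sum gave the deposited FPKM, as 195738 of 195738 values matched to 0.01. Aligner and counting tool: not given in the sources used here. The submitters' processing notes name mRatBN 7.2, but positions reach 282724300 on chromosome 1, beyond that build. Promoter windows are RefSeq's on GRCr8.

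Counts were tested with edgeR 4.0.16 (R 4.3.3): quasi-likelihood test, TMM factors, default low-count filter, no covariate, Benjamini-Hochberg adjustment over all tested genes at 0.05. SE is the one implied by the quasi-F value. Ratios within a library used counts per exon length and exact permutation tests. Counts were also simulated for the 14298 genes of GZM against GM, with 200 changed genes. There edgeR found 16% of the 2-fold changes and 81% of the 4-fold changes, beside 10 false calls. The data hold far more calls (6285 genes), which loosens the adjusted cutoff, so these rates are not those of the data. Small differences can still be missed. The members, the 7 pathway lists and 13 marker lists (187 entries, 7 not matched in the table) were chosen with earlier results of these data known. Named genes are all members, up to 4 genes of smallest p per pathway list, 11 genes fixed by name, and for Hif1a and Epas1 the 3 nearest profiles. Where a symbol has 2 rows, the row with more counts was used. Alternatives were library totals, median-of-ratios factors, no low-count filter, DESeq2 1.42.0, limma 3.58.1 on log2 FPKM with pseudocounts 0.1 and 0.5, the replicate number as a block, and leaving out libraries. Same-numbered samples did not deviate together (correlations -0.14, 0.16 and -0.27), so the numbers were not taken to pair samples. Figures were drawn with matplotlib 3.10.9.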

Additional observations from a re-analysis of the deposited data

How the results depend on the processing

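Hif1a and Egln3 kept their direction and call in all 15 alternatives, at log2 fold changes of -2.32 to -1.40 and -2.30 to -1.19. Arnt2 kept its own in the 14 that gave it a value, but in the main test it passed the low-count filter through its GM libraries. The Hif1a to Epas1 difference ran from -2.67 to -2.02 over its 8 alternatives. Over 134 pairs of a member and an alternative, direction and call were as in the main test in 108, 4 lost and 16 gained a call, and 6 changed sign. Most changes come with settings scaled to library totals, which move the median of all genes. Library totals gave 1315 higher and 8513 lower calls over all genes, 0 and 7 among the members (all 9 tested members but Epas1 and Egln2), and 1 and 53 in the pathway lists. Limma on log2(FPKM + 0.1) gave 1362 and 8560 over all genes and 0 and 7 among members, on log2(FPKM + 0.5) 1364 and 8536 and again 0 and 7, and with a mean FPKM of at least 1, 1309 and 7926 and 0 and 6. DESeq2 gave 2 higher members, as did edgeR without both GM 3 and GZM 1. Leaving out 1 library gave 2112 to 3592 higher and 1665 to 3432 lower calls over all genes, 1 to 2 and 3 to 4 among members, and 7 to 16 and 7 to 17 in the pathway lists.

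Signs turned with library totals for Epas1 (-0.014), Egln1 (-0.74), Eloc (-0.80), Cul2 (-0.61), Rbx1 (-0.80), Crebbp (-0.63), Clock (-0.17), Bmal1 (-0.075), Ikbkb (-0.20), Rela (-0.52), Stat3 (-0.49), Kdm6a (-0.60) and Bmal2 (-0.30). With limma and pseudocount 0.1, with or without the FPKM minimum, they turned for Egln1 (-0.76), Eloc (-0.78), Cul2 (-0.56), Rbx1 (-0.79), Crebbp (-0.61), Clock (-0.17), Bmal1 (-0.078), Ikbkb (-0.21), Rela (-0.51), Stat3 (-0.49), Kdm6a (-0.58) and Bmal2 (-0.24). With pseudocount 0.5 the values of these were -0.75, -0.77, -0.55, -0.79, -0.56, -0.16, -0.075, -0.21, -0.50, -0.49, -0.54 and -0.20. Leaving out 1 library turned Egln1 (-0.019 to 0.24), Eloc (-0.0054 to 0.15), Rbx1 (-0.039 to 0.11), Egln3 per Hif1a (-0.32 to 0.40) and Vhl per Arnt (-0.076 to 0.26). Without division by length the summed alpha ratio to Arnt turned to 0.59.

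With the replicate number as a block, edgeR gave 2676 higher and 2490 lower calls over all genes, 1 and 3 among members and 9 and 12 in the pathway lists. The block ended the calls of Ep300 (adjusted p = 0.0966), Sp1 (0.0821), Kdm4c (0.0654) and Kdm5a (0.079), and those of no other named gene. The labels do not say that a number marks a shared animal or batch. Low counts limit Arnt2, and Hif3a could not be tested. Except for library totals and FPKM, whose scaling is the change itself, the cause of a changed call was not tested.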

Other observations

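A further ratio, chosen after the values had been seen, combines the alpha subunits. Hif1a and Epas1 together gave 7.69, 8.01 and 8.13 transcripts per transcript of Arnt in GM 1, 2 and 3, by counts per exon length, and 8.04, 7.75 and 7.19 in GZM 1, 2 and 3. The groups overlapped, at 7.94 ± 0.224 and 7.66 ± 0.428 (SD, n = 3 each; exact permutation p = 0.5). Taken apart, the same libraries differed in makeup. The log2 ratio of Hif1a to Arnt was 2.54 ± 0.16 in GM and 1.46 ± 0.12 in GZM, and that of Epas1 to Arnt was 1.02 ± 0.49 and 2.29 ± 0.06. Neither of these 2 ratios overlapped between groups (exact permutation p = 0.1 for each, the smallest possible). So the summed alpha level per Arnt lay within 7.19 to 8.13 in all 6 libraries while the makeup of that sum differed. Without division by length the difference was 0.59 in place of -0.28, again without a call (exact permutation p = 0.3).

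Other ratios within a library were computed in the same way, 7 in all with those above. Egln3 per Hif1a spread more within the groups than between them, at -2.22 ± 0.35 in GM and -2.24 ± 0.75 in GZM on the log2 scale (exact permutation p = 1). Egln3 per Egln2 was -0.48 ± 0.38 in GM and -2.89 ± 0.63 in GZM, and Hif1an per Egln2 was -1.46 ± 0.31 and -2.82 ± 0.19, neither overlapping (exact permutation p = 0.1 for each). Vhl per Arnt was 0.36 ± 0.35 in GM and 0.42 ± 0.23 in GZM (exact permutation p = 0.9). Adjusted over the 7 ratios, the lowest p was 0.175.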
